A study of Mus musculus with 3 samples.

Results

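Clathrin-mediated endocytosis is carried by a small set of proteins, and 10 of their genes are described here by where the splicing factor RBFOX2 was crosslinked to their transcripts in mouse hepatocytes. The genes are Clta, Cltb and Cltc, which encode the clathrin coat, Ap2a1 and Picalm, which encode adaptors, Eps15, Eps15l1, Itsn1 and Itsn2, which encode scaffolds of the growing pit, and Dnm2, which encodes the dynamin that cuts the vesicle free. They were chosen by name, and a crosslink cluster was assigned to a gene when it lay on the gene's strand with its midpoint inside the annotated span (GENCODE M21, mouse genome GRCm38). This gave 227 of the 87021 clusters in the list, or 0.261%, and 5208 of its 2850863 counts, or 0.183%. All 10 genes held at least 1 cluster, whereas 41.7% of protein-coding genes (9191 of 22028) did. The genes were chosen with earlier results of these data known, and the 22028 include genes at any RNA level, so this difference was not tested.

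The measurements came from eiCLIP, an immunoprecipitation of RNA crosslinked by ultraviolet light to the protein that binds it, in which the start of each cDNA marks the crosslinked nucleotide. Primary hepatocytes of C57BL6/J mice on control diet were plated, left overnight and irradiated at 150 mJ/cm2, and RBFOX2 was recovered with an antibody (RBM9, Bethyl Laboratories). No genotype, age or comparison group is given for these cells. There is 1 group of 3 libraries, each labelled as 3 livers and 3 pellets, while the methods of the study describe independent cultures, each from a pair of mice. The authors pooled the 3 libraries before they called clusters, so a value here has no spread between libraries, and the intervals given cover counting error only. A cluster in the list carried at least 10 counts, with a median of 17, and the highest 10% started at 39 counts. All 8 hepatocyte marker genes held clusters, with a summed count of 13245, of which Alb gave 8110. Of 15 markers of other liver cells 3 did, none above a summed count of 15. The hepatocyte marker Cyp2e1 had 11 counts, fewer than each of these 3 (Stab2 12, Ptprc 14, Adgre1 15). The RNA level of each gene was not measured here, so stronger binding and a more abundant transcript cannot be told apart in any count below.

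As background, clathrin is a legged scaffold of heavy chains, each carrying a light chain, and assembles on the plasma membrane into a cage. The AP2 complex and PICALM tie the cage to lipid and cargo, EPS15 and intersectin proteins gather these parts at the start, and dynamin constricts the neck of the pit. In hepatocytes this route takes up the low-density lipoprotein receptor, the transferrin receptor and the asialoglycoprotein receptor. Several of these genes have alternative exons, some of them used mainly in neurons or muscle. RBFOX proteins bind the RNA motif UGCAUG or its core GCAUG and change the use of nearby exons; the motif is written below as DNA, GCATG.

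The sequences that the results turn on are the short alternative exons of Picalm, Dnm2 and Cltc that had clusters nearby, and the stretch of Picalm that carried the highest cluster of the set. A cassette exon is taken here as an internal exon of protein-coding transcripts that at least 1 other protein-coding transcript of the gene skips. All sequences run 5′ to 3′ on the strand of the gene and come from the GENCODE M21 transcripts on GRCm38, and GCATG is in capitals. The Picalm exon of 24 nt (chr7:90194273-90194296, plus strand, used by 4 coding transcripts and skipped by 4) contains the motif itself. The Dnm2 exons of 12 nt (chr9:21489910-21489921 and chr9:21490658-21490669, plus strand) and the Cltc exon of 21 nt (chr11:86701061-86701081, minus strand) do not.
Picalm 24-nt exon: aatgGCATGcattttccacaatac
Dnm2 first 12-nt exon: ggtcatgtagct
Dnm2 second 12-nt exon: ggggagatcttg
Cltc 21-nt exon: gttgatgcaataaaggaaaag

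The Picalm stretch is shown because it holds the highest cluster of the set and 4 motifs. The first line gives 300 nt from the start of the 24-nt exon (chr7:90194273-90194572), the second the next 150 nt of the intron (chr7:90194573-90194722), and the third the highest cluster, a piece of the second line (chr7:90194589-90194613). An annotated retained-intron transcript covers all 3, which is why their sequence could be read.
Picalm exon and intron: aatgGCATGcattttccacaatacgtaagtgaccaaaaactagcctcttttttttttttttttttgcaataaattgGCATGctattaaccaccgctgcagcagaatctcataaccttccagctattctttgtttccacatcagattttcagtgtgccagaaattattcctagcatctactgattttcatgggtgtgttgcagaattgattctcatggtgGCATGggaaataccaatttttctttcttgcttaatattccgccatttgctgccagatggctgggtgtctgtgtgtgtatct
Picalm intron, continued: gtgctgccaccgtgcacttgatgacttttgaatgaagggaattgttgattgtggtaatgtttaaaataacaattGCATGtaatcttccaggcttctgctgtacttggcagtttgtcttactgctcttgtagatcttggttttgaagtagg
Picalm highest cluster: cttgatgacttttgaatgaagggaa
GCATG occurred once in the exon and at 53, 196 and 351 nt downstream of it, the last as TGCATG. These were the only 4 matches on the gene's strand in the 1873 nt that could be read around the exon (chr7:90193099-90194971), and 0 fell in the 1174 nt read upstream.

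Counts were spread unevenly over the 10 genes. Picalm and Dnm2 together held 130 of the 227 clusters (57.3%) and 3389 counts, or 65.1% of the sum, and Cltc brought the share to 77.7%. Picalm had 74 clusters and a summed count of 1934 (exact Poisson 95% interval 1849 to 2022), rank 130 of the 9191 protein-coding genes with a cluster. Dnm2 had 56 clusters and 1455 counts (1381 to 1532), rank 182, and Cltc 34 clusters and 659 counts (610 to 711), rank 520. At the other end Itsn1 had 4 clusters and 66 counts (51.0 to 84.0) and Cltb a single cluster of 16 counts (9.15 to 26.0).

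The remaining 5 genes lay close together between these ends. Their summed counts ran from 185 (Itsn2) and 203 (Eps15l1) through 208 (Clta) and 233 (Ap2a1) to 249 (Eps15), and the intervals of neighbours in this order overlapped. The median summed count over the 10 genes was 220.5, against 63 over all protein-coding genes with a cluster, and 9 of 10 lay above that median. The genes were also long, with a median span of 81.7 kb against 32.7 kb.

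Per length the order changed. Summed counts per kb of span were highest in Picalm (23.2) and Dnm2 (17.6), followed by Cltc (10.4), Ap2a1 (8.0) and Clta (7.33), and lay near the median of 2.16 of protein-coding genes with a cluster in Eps15l1 (2.52) and Eps15 (2.32). Itsn2 (1.53), Cltb (0.845) and Itsn1 (0.345) were below it. Thus 7 of 10 genes lay above the median per kb, Picalm at the 93.4th and Itsn1 at the 13.7th percentile. Single clusters of these genes were ordinary in height: their median was 16 counts, 112 (49.3%) reached the list median, and 24 (10.6%, against 10.2% of the whole list) had 39 counts or more, of which Picalm held 11 and Dnm2 10.

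**Figure D1:**
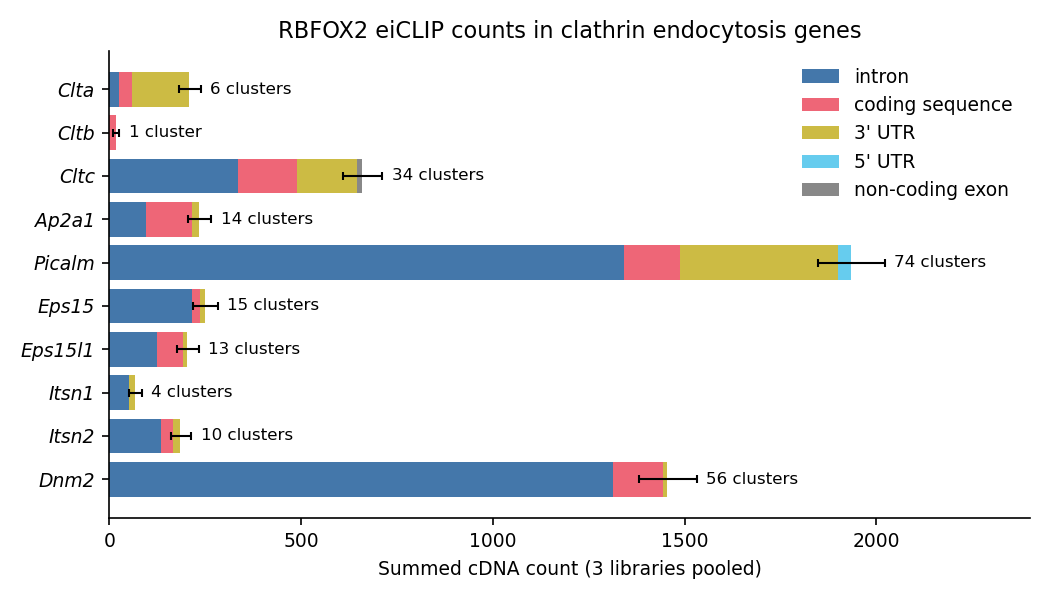
Summed cDNA count (horizontal axis) of each of the 10 genes, split by the kind of sequence in which the clusters lay, with exact Poisson 95% intervals as black bars and the number of clusters beside each bar. Picalm (1934) and Dnm2 (1455) stand above the other 8 genes, and most of their counts are intronic, while most of the 208 counts of Clta lie in its 3′ UTR.

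**Figure D2:**
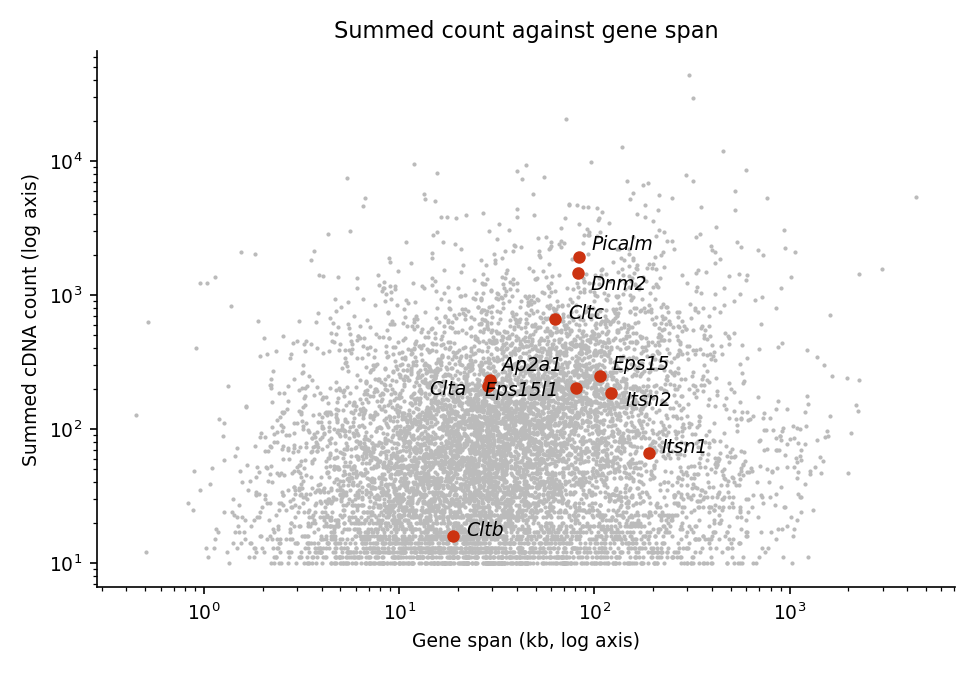
Summed cDNA count against gene span, both on log axes, for the 9191 protein-coding genes with a cluster (grey points) and the 10 clathrin endocytosis genes (red points). Picalm and Dnm2 lie high for their span of about the same length, and Itsn1, the longest of the 10 at 191.3 kb, lies low.

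By annotation, 159 of the 227 clusters (70.0%, Wilson 95% interval 63.8 to 75.6) lay in introns, close to the 69.7% over all clusters in protein-coding genes. Coding sequence held 39 clusters (17.2%, against 14.5%), 3′ UTRs 26 (11.5%, against 13.6%), 5′ UTRs 2 and exons of non-coding transcripts 1. The genes differed: introns held 49 of 56 clusters in Dnm2 and 13 of 15 in Eps15, but 6 of 14 in Ap2a1, 2 of 6 in Clta and none of 1 in Cltb. The intronic clusters lay nearer to exons than those of all protein-coding genes, with a median distance of 605 nt to the nearest exon against 1608 nt. Dnm2 gave 49 of these 159 clusters, 35 of them in 1 intron. Of the 159, 48 (30.2%, 23.6 to 37.7) lay within 300 nt of an exon, against 21.4% over all protein-coding genes.

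Alternative exons were examined for clusters whose midpoint lay in the first 300 nt of intron on either side. Of the 25 cassette exons of the 10 genes, 9 (36.0%, 20.3 to 55.5) had such a cluster, against 12.8% of the 8542 cassette exons of all protein-coding genes with a cluster. The share depends on the definition: where non-coding transcripts other than retained-intron ones also counted, 7 of 31 exons had a cluster (22.6%, 11.4 to 39.8), against 11.9% of 11102, since the Cltc 21-nt exon and an Eps15 exon of 182 nt no longer qualified and the added exons, most of them in Itsn1, had none. Upstream clusters were found at 6 exons (24%, against 6.98%), downstream clusters at 6 (24%, against 7.94%), and clusters on both sides at 3. The exons of at most 30 nt had clusters at 4 of 6, against 18.2% of 544. Constitutive exons of the same genes, which every spanning coding transcript uses, had clusters at 20 of 188 (10.6%, 6.99 to 15.9), against 8.22% over all genes. These are shares for 25 exons of genes chosen with earlier results known, 7 of the 9 lie in Dnm2, Eps15 and Picalm, and windows of neighbouring exons can share a cluster, so no test was made. The protein-coding genes compared had a median of 3 clusters, against 56 in Dnm2 and 74 in Picalm. Constitutive exons had a cluster at 4 of 17 in Dnm2 and 3 of 15 in Picalm, but at none in Clta, Cltb and Itsn1.

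**Figure D3:**
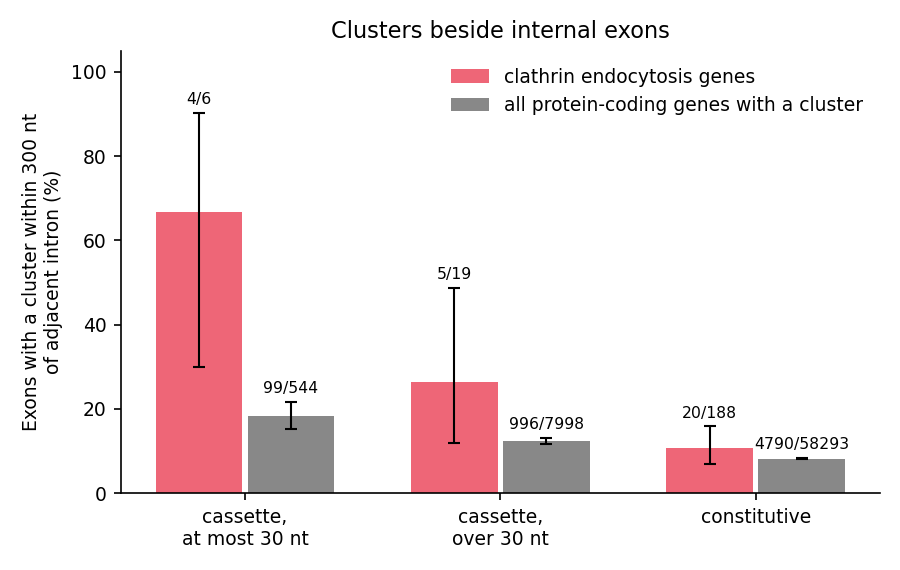
Percentage of internal exons with a cluster within 300 nt of adjacent intron (vertical axis) for cassette exons of at most 30 nt, longer cassette exons and constitutive exons, in the 10 genes (red) and in all protein-coding genes with a cluster (grey). Numbers give exons with a cluster over exons examined and bars give Wilson 95% intervals. The short cassette exons of the 10 genes (4 of 6) lie highest, with an interval from 30 to 90.3.

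Clta and Cltb encode the clathrin light chains, and both have a 54-nt exon, with a 36-nt exon besides in Clta, whose inclusion is known from neurons. These exons are shown because the light chains are the textbook case of alternative splicing in this pathway and no cluster lay near them here.
Clta 54-nt exon: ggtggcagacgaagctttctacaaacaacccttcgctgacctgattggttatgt
Cltb 54-nt exon: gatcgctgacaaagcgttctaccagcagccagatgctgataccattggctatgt
Clta 36-nt exon: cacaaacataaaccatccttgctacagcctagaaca
The 54-nt exons, at chr4:44030215-44030268 on the plus strand and chr13:54597026-54597079 on the minus strand, were identical at 37 of 54 positions (68.5%). None of the 3 exons holds GCATG, and the nearest clusters lay 2249 nt (Clta, 54 nt), 1082 nt (Clta, 36 nt, chr4:44031400-44031435) and 14127 nt (Cltb) away. The introns that span these exons held 0 clusters. For a list that starts at 10 counts per cluster this says only that no cluster was listed there.

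The clusters of Clta lay elsewhere. The gene (chr4:44004452-44032846) had 6 clusters, and a single one in the 3′ UTR (chr4:44032640-44032746) carried 150 counts (127 to 176), 72.1% of the summed count. It was at the 98.9th percentile of the list in height. The others had 14 and 12 counts in 1 intron and 11, 11 and 10 in coding sequence, so that all but 1 lay near the list minimum. The 3′ UTR cluster, 107 nt wide, contains GCATG, starting 69 nt from its 5′ end, here with 10 nt on each side (chr4:44032699-44032723).
Clta 3′ UTR motif: gtttgtgattGCATGtttccttcaa
A second Clta cluster, of 11 counts at the end of the coding sequence, also had the motif in its window of 50 nt on each side. The only cluster of Cltb (chr13:54592401-54611344) lay in coding sequence at the start of the gene (chr13:54611146-54611267, 16 counts), without the motif in its window.

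Cltc, on chr11:86694351-86757565 (minus strand), encodes the heavy chain that forms the legs of the coat. Its 34 clusters were spread along the gene, with 19 in introns, 8 in coding sequence, 6 in the 3′ UTR and 1 in an exon of a non-coding transcript. The highest, with 55 counts (41.4 to 71.6), lay in the 3′ UTR (chr11:86695158-86695159), followed by 39 counts at the 3′ end of an intron and the start of a coding exon (chr11:86697313-86697342) and 37 counts in coding sequence (chr11:86711865-86711969). The 6 clusters of the 3′ UTR summed to 157 counts, 10 to 55 each, and 0 of the 7 Cltc windows with sequence held GCATG.

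The 21-nt cassette exon of Cltc, used by 1 coding transcript and skipped by 2, had clusters on both sides. Downstream of it lay clusters of 13, 32, 26 and 16 counts at 100, 207, 380 and 489 nt, and upstream 14 and 19 counts at 131 and 381 nt. The 13-count cluster is the one in an exon of a non-coding transcript. None of the 6 reached the top 10% of the list. Within 300 nt the summed count was 59, rank 155 of the 8542 cassette exons, of which 1095 had a cluster in this window. The intron that spans the exon (4868 nt, 7.70% of the gene) held 9 clusters and 160 counts, 24.3% of the gene's count.

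**Figure D4:**
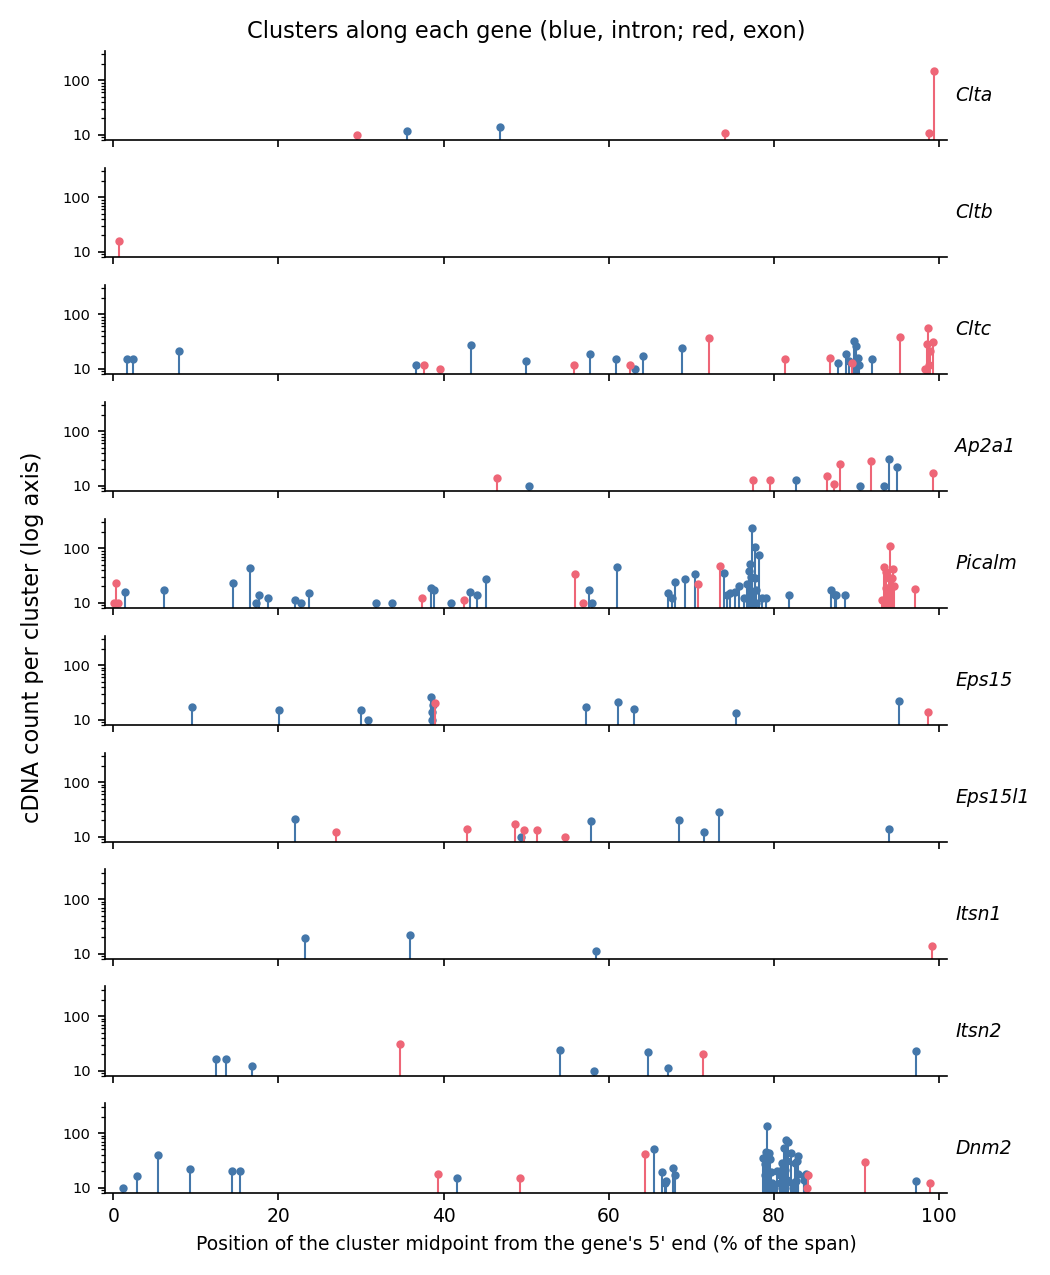
cDNA count per cluster (vertical, log axis) against the position of the cluster from the 5′ end of the gene as a percentage of the span, in one panel per gene; blue marks intronic and red exonic clusters. Picalm and Dnm2 show a dense group near 77 and 79 to 84% of the span, Picalm a group of exonic clusters in its 3′ UTR, and Clta a single high cluster at the 3′ end.

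Among the adaptors, Ap2a1 encodes a large subunit of the AP2 complex, which links clathrin to cargo. Its 14 clusters (chr7:44900373-44929496, minus strand) had 10 to 31 counts, with 7 in coding sequence, 6 in introns and 1 of 17 counts in the 3′ UTR. The highest were 31 counts in an intron near the 3′ end (chr7:44902110-44902133), 29 counts in coding sequence (chr7:44902728-44902806) and 25 counts in coding sequence (chr7:44903826-44903861). Clusters of 31, 22 and 10 counts shared 1 intron of 1034 nt and made up 27.0% of the gene's count. The 66-nt cassette exon of Ap2a1 (used by 2 coding transcripts, skipped by 3) had no cluster within 300 nt. The nearest were the coding cluster of 25 counts, 316 nt upstream in the preceding exon, and 10 counts 321 nt downstream. None of the 5 Ap2a1 windows with sequence held GCATG.

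Picalm (chr7:90130213-90213465, plus strand), the adaptor that binds membrane lipid and SNARE cargo, had the highest cluster of the set. It also had 9 of the 12 windows with GCATG, but 45 of the 72 windows that could be read. Its share of 20% (10.9 to 33.8) was near the 20.3% over all protein-coding genes. The cluster of 235 counts (206 to 267; chr7:90194589-90194613) lay in the intron 305 nt downstream of the 24-nt exon and was at the 99.4th percentile of the list. The second, 111 counts (91.3 to 134), was in the 3′ UTR (chr7:90208558-90208579), and the third, 104 counts (85.0 to 126), 593 nt downstream of the same exon (chr7:90194880-90194898). Further along the intron, 75 counts were found 335 nt before the next exon (chr7:90195312-90195328).

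Clusters around the 24-nt exon were more numerous and higher on its downstream side. Within 500 nt upstream there were 2, of 22 counts at 180 nt and 12 counts at 461 nt. Within 500 nt downstream there were 7, of 39, 52, 30, 11, 235, 14 and 16 counts at 26, 163, 207, 224, 305, 364 and 388 nt. Summed over 1000 nt, the downstream side held 11 clusters and 556 counts and the upstream side 3 clusters and 54 counts. The intron across the exon (chr7:90191754-90195654, 3901 nt, 4.69% of the gene) held 20 clusters and 777 counts, 40.2% of the gene's count. By the count within 300 nt (154) the exon ranked 51 of 8542, of which 1095 had a cluster in this window. The rank leaves out the highest cluster, which lies just outside this window.

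The motifs in the printed stretch interleave with these clusters. All 7 clusters from 26 to 388 nt downstream had GCATG in their window of 50 nt on each side, and the gap between a cluster and its nearest motif ran from 3 nt (30 counts) to 34 nt (235 counts). The 3 clusters upstream of the exon within the stretch read, of 20, 12 and 22 counts, had their nearest motif at 919, 463 and 176 nt, and the cluster of 104 counts at 229 nt, none of them in the window. The other windows of Picalm that held the motif were an intronic cluster of 14 counts and a 3′ UTR cluster of 28 counts. The 111-count cluster of the 3′ UTR did not.

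The other cassette exons of Picalm had no cluster within 500 nt: the nearest lay 1196 nt from the 150-nt exon (used by 4 coding transcripts and skipped by 4) and 1470 nt from the 102-nt exon. The 3′ UTR held 13 clusters of 11 to 111 counts, which summed to 414. Of the 74 clusters, 11 also lay within other annotated genes on the same strand, all in introns of Picalm and none among the clusters beside the 24-nt exon.

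**Figure D5:**
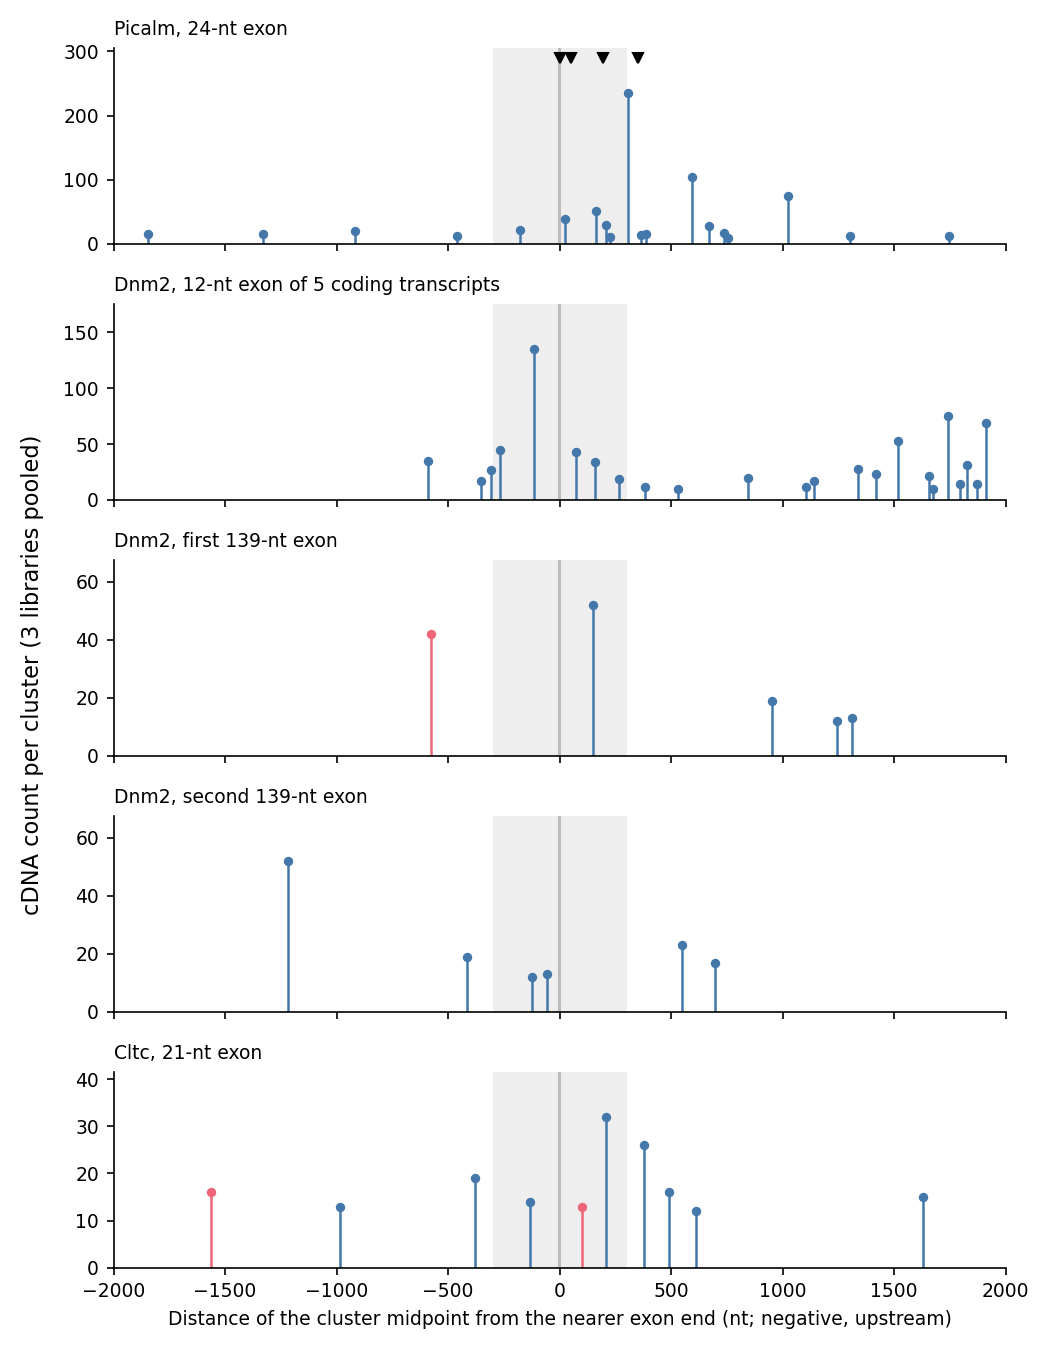
cDNA count per cluster (vertical axis, linear from 0, one scale per panel) against distance from the nearer end of the exon in nt, negative upstream, for the Picalm 24-nt exon, the second Dnm2 12-nt exon, both Dnm2 139-nt exons and the Cltc 21-nt exon; blue marks intronic and red exonic clusters, the grey band the 300-nt windows and the triangles GCATG in Picalm, which was read only in part of the panel. The 235-count cluster of Picalm stands between the last pair of motifs, and the 135-count cluster of Dnm2 lies just upstream of its exon.

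No cluster of the scaffold genes exceeded 31 counts, as in Ap2a1. Their clusters numbered from 4 (Itsn1) to 15 (Eps15) per gene, against a median of 3 over protein-coding genes with a cluster. Eps15 (chr4:109280268-109387817, plus strand), an early organizer of the pit that binds AP2, had 15 clusters of 10 to 26 counts, 13 of them intronic. The highest, 26 counts (chr4:109321713-109321723), lay with clusters of 14, 10 and 19 counts in a single intron of 852 nt, which held 69 counts or 27.7% of the sum, and the exon that follows carried 20 counts in coding sequence (chr4:109322115-109322128). The next highest was 22 counts (chr4:109382618-109382716), 118 nt upstream of a 182-nt cassette exon used by 4 coding transcripts and skipped by 1. The next, of 21 counts (chr4:109345996-109346034), lay in an intron 2659 nt from the nearest exon. A 198-nt cassette exon had 13 counts 243 nt upstream, and the 96- and 201-nt cassette exons had no cluster within 500 nt. The 3′ UTR held 1 cluster of 14 counts.

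Eps15l1 (chr8:72340999-72421460, minus strand), the relative of Eps15, had 13 clusters of 10 to 28 counts, 7 in introns, 5 in coding sequence and 1 of 10 counts in a 3′ UTR. Its highest clusters, of 28, 21 and 20 counts (chr8:72362412-72362492, chr8:72403750-72403800 and chr8:72366348-72366377), all lay in introns over 1 kb from an exon. The 5 coding clusters had 12 to 17 counts. Of its cassette exons, the 206-nt exon had 14 counts 86 nt downstream and the 133-nt exon had none within 500 nt.

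Itsn1 and Itsn2 encode intersectins, multidomain scaffolds that join the pit to dynamin and actin. Itsn1 (chr16:91729281-91920597, plus strand) had 3 intronic clusters of 22, 19 and 11 counts (chr16:91798123-91798152, chr16:91773637-91773652 and chr16:91840995-91841183) and 1 of 14 counts in the 3′ UTR (chr16:91918964-91918967). None of its 5 cassette exons had a cluster within 500 nt. The nearest was 1539 nt upstream of the 15-nt exon (chr16:91842628-91842642), a microexon of the first SH3 domain known from neurons, shown because its size is that of the Dnm2 and Picalm exons.
Itsn1 15-nt exon: gttaaaggggaatgg
This exon was used by 3 coding transcripts and skipped by 4, and the intron across it held 0 clusters over 7111 nt. The 30 constitutive exons of Itsn1 also had no cluster within 300 nt (0 of 30, Wilson upper bound 11.4%).

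Itsn2 (chr12:4592638-4713962, plus strand) had 10 clusters of 10 to 31 counts, 8 of them in introns. Its highest were 31 counts in coding sequence (chr12:4634709-4634748), 24 counts 34 nt downstream of an exon (chr12:4658159-4658290) and 23 counts in an intron (chr12:4710512-4710624). A cluster of 20 counts in a 3′ UTR of the gene (chr12:4679378-4679379) had GCATG in its window, the only Itsn2 window with sequence. The 81-nt cassette exon of Itsn2 had no cluster nearer than 6185 nt, while 4 of 37 constitutive exons had one within 300 nt.

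Dnm2 (chr9:21424908-21507759, plus strand) encodes the widely expressed dynamin. Its counts were concentrated in 1 intron: the intron that spans both 12-nt exons (chr9:21489795-21494503, 4709 nt) held 35 of its 56 clusters and 1021 of 1455 counts, or 70.2%. The highest cluster, 135 counts (113 to 160; chr9:21490509-21490576), lay 116 nt upstream of the second 12-nt exon, and the next, 75 and 69 counts (chr9:21492407-21492415 and chr9:21492573-21492587), lay in the same intron, 985 and 1154 nt downstream of the nearest annotated exon, one of a non-coding transcript. Apart from this intron, Dnm2 held 21 clusters, 14 of them in other introns.

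The second 12-nt exon, used by 5 coding transcripts and skipped by 3, had clusters on both sides. Upstream lay 135, 45, 27 and 17 counts at 116, 268, 309 and 352 nt, and downstream 43, 34, 19 and 12 counts at 72, 159, 264 and 382 nt. Within 300 nt these summed to 180 upstream and 96 downstream, 276 in all. This was rank 26 of 8542, of which 1095 had a cluster in this window, and the highest of the 25 cassette exons described here. The first 12-nt exon, used by 1 coding transcript and skipped by 7, had 35 counts 148 nt downstream and, within 500 nt, also the 17, 27 and 45 counts just given, which the short distance between the exons places in both neighbourhoods. The windows of these clusters could not be read, so the motif could not be looked for beside either 12-nt exon. At the far end of the intron 4 clusters of 14 to 18 counts, within 300 nt of the next exon, could be read, and 0 of the 6 Dnm2 windows with sequence held GCATG.

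Dnm2 also has a pair of 139-nt exons, of which a coding transcript uses one or the other: 0 transcripts held both, 5 held the first and 3 the second. They are shown because clusters lay in the intron between them and not on their outer sides within 300 nt.
Dnm2 first 139-nt exon: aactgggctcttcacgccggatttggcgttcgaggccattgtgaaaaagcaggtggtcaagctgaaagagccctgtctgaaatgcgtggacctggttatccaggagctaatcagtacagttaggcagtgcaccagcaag
Dnm2 second 139-nt exon: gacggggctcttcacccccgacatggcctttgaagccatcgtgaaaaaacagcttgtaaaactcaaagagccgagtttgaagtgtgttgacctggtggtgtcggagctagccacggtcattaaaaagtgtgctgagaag
The exons (chr9:21478899-21479037 and chr9:21480407-21480545) were identical at 95 of 139 positions (68.3%). A cluster of 52 counts (38.8 to 68.2; chr9:21479135-21479239) lay 150 nt downstream of the first, and clusters of 13, 12 and 19 counts lay 59, 125 and 416 nt upstream of the second. The first exon had no cluster within 500 nt upstream and the second none within 500 nt downstream. The 30-nt exon of Dnm2, used by 1 coding transcript and skipped by 7, had its nearest cluster 2993 nt away.

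Over all genes, GCATG was found in 12 of the 72 windows of the 10 genes that could be read (16.7%, 9.80 to 26.9), against 20.3% of 18172 windows in all protein-coding genes. In introns it was found in 8 of 36 windows (22.2%, 11.7 to 38.1), against 25.4%. All 8 intronic windows with the motif were in Picalm, 7 of them beside the 24-nt exon and overlapping each other. Picalm also held 28 of the 36 intronic windows read, which gave it an intronic share of 28.6% (15.3 to 47.1). Outside Picalm 3 of 27 windows of any kind held the motif (11.1%, 3.85 to 28.1). The windows are those that annotated transcripts cover, 72 of 227, so most intronic clusters, including nearly all of Dnm2, were not read.

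Of 51 other genes of the pathway, 40 held a cluster (78.4%, beside the 41.7% given above), with a median summed count of 161.5, and 30 lay above the median of protein-coding genes with a cluster. The highest summed counts were 2492 (2395 to 2592) in Ap2s1, the small subunit of AP2, 1052 in Pacsin2, a membrane-bending protein, 939 in Hspa8, the chaperone that strips the coat, 931 in Hip1r, which links coat to actin, and 919 in Aak1, the kinase of AP2. Ap2s1 reached its count with 49 clusters in a span of 10.9 kb. The 11 genes with no listed cluster were Dnm1 and Dnm3, the other dynamins, the coat adaptor Snap91, a relative of Picalm, Sh3gl2, Sgip1, Fcho1, Epn3, Hip1, Dab2, Numbl and Arrb1. Among relatives within the family, then, Dnm2 and Picalm carried the counts and Dnm1, Dnm3 and Snap91 had none listed. The AP2 large-subunit gene Ap2a2 had 419 counts (380 to 461) beside 233 (204 to 265) in Ap2a1. Per kb of span the order was reversed, with 5.9 counts in Ap2a2 and 8.0 in Ap2a1.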

How the data were processed

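eiCLIP of RBFOX2 was performed by the authors in 3 libraries of primary mouse hepatocytes. Per the labels and the methods, the authors trimmed reads with cutadapt, aligned them with STAR 2.4.2a to GRCm38, kept unique reads, removed PCR duplicates by position and random barcode, pooled the libraries and clustered cDNA starts with Paraclu. The deposited value of a cluster is a whole-number count, taken from its values to be cDNA starts, neither normalised nor input-subtracted; size-matched input was not used here, and depth per library is unknown. Clusters were annotated by midpoint with GENCODE M21 (an older release, same build, is named in the methods); coding sequence took precedence over 3′ and then 5′ UTR, these over non-coding exons and these over introns, to which retained-intron transcripts were assigned. Coordinates are 1-based. Sequence came from 141767 annotated transcripts. Windows added 50 nt on each side of a cluster and were used only where fully covered; GCATG was searched on the gene's strand. Intervals are exact Poisson (counts) and Wilson (shares) at 95%. Python 3.11.15, numpy 2.4.6, pandas 2.3.3, scipy 1.17.1 and matplotlib 3.10.9 were used, and placement was tested on simulated clusters. No test was run, since 1 pooled group allows none.

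The genes, lists and windows were chosen with earlier results of these data known. All 10 genes are named, each with its 3 highest clusters, those within 500 nt of a cassette exon and, where 5 or fewer, those in exons. The alternatives were another count minimum, gene overlap, merging, intron window, exon definition, motif and flank, and 3 chosen after seeing the data.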

Additional observations from a re-analysis of the deposited data

Results flagged for a closer look

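Clusters on the strand opposite to the 10 genes lie outside the values reported above. There were 4 of them within the gene spans, with a summed count of 89. The highest, of 43 counts and 1 nt wide, lay opposite Cltc, where no gene is annotated on that strand (chr11:86712112-86712112). One of 21 counts lay opposite Itsn1, inside Atp5o, one of 15 counts opposite Picalm with no annotated gene, and one of 10 counts opposite Dnm2, inside Tmed1. The list has no control samples, and these clusters were set apart only because they lie outside the genes' own strand.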

How the results depend on the processing

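Of 41 recomputed values, 29 stayed close to those reported: numbers of clusters and exons within 1.5 times, summed counts and shares inside their 95% intervals. By this rule the 158 clusters left after merging those within 200 nt of each other counted as close to 227. Clusters listed singly above therefore need not be separate binding sites. With only clusters at or above the list median of 17 counts, 112 clusters and a summed count of 3746 were left, and with the top 10% of counts 24 clusters, 1681 counts and 3 cassette exons with a cluster within 300 nt, against 9. A 100-nt intron window left 5 such exons, and cassette exons defined by all but retained-intron transcripts gave 7 of 31 (22.6%) in place of 9 of 25 (36.0%). Counting exons of retained-intron transcripts as exon lowered the intronic share from 70.0% to 59%. Of windows with sequence, 6.94% held TGCATG, and GCATG was in 5.95% with 20 nt and 27% with 100 nt on each side, against 16.7% with 50 nt. Except for the exon definition, shares over all genes are not given for these settings. Of the alternatives chosen after seeing the data, leaving out clusters up to 2 nt wide gave a summed count of 4541, and leaving out those shared with another gene 5032; leaving out the single cluster with an adaptor-like heptamer, of 106 that could be searched, moved none of the 5 results beyond these limits. No paired analysis was possible because the 3 libraries were pooled before deposit, and for the same reason no replicate could be left out. The minimum of 10 counts limits what can be seen: a gene or exon without a cluster may have carried fewer counts.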
